A study of Mus musculus with 15 samples.

Results

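Single cells of the embryonic kidney were compared with single cells of the adult renin-producing region, on arrays made with the same amplification protocol. The comparison uses 9 of the 15 arrays of the series: 4 cells of the metanephric mesenchyme (MM), numbered 14, 15, 16 and 19 in the labels, and 5 juxtaglomerular (JG) cells, numbered 4 to 8. Arrays were chosen by their labelled tissue alone. Of 35557 probe sets, those with a single gene symbol gave 19938 genes, which are the features described here.

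MM cells came from embryos at day 11.5 (Theiler stage 19) that carry the Tg(Crym-EGFP)GF82Gsat reporter, with sex unknown. The tissue was microdissected and triturated, and fluorescent cells were picked with pulled glass needles. JG cells came from adult male Ren1c-YFP mice (Theiler stage 28): YFP-positive cells next to glomeruli were freed with collagenase A and trypsin and picked in the same way. The dissection text of the JG labels names Ren1d GFP mice instead, and this disagreement was not resolved. Strain is unspecified for every group, no sample was pooled, and both cell groups went through 32 rounds of the SCAMP amplification. A further 3 libraries, A, B and C, hold lysed cortex of adult male Ren1c-YFP mice that was diluted and amplified by the same protocol, and their values are set beside the cells as a reference. Stage, reporter line and dissociation differ between the cell groups together and cannot be told apart, and whether sex differs is unknown. No label ties a cell to an animal, so the cells of a group count as 1 sample: no test was run, and every SD below is the spread over cells.

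The metanephric mesenchyme is the embryonic tissue that forms the nephrons and much of the stroma of the kidney, and its cells divide. Adult JG cells sit in the wall of the afferent arteriole, store and release renin, belong to the lineage of vascular smooth muscle and pericytes, and rarely divide. Dividing progenitors are known for a high output of splicing, translation, chaperone and proteasome proteins, and mural cells for matrix, actin and contractile proteins.

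Levels are log2 signals. A gene was called above background in an array when it exceeded the 99th percentile of 1207 olfactory and vomeronasal receptor probe sets of that array, a level of 7.13 to 7.56 in the MM cells and 7.56 to 7.93 in the JG cells. The number of genes above background was 4113, 3150, 2173 and 4207 in MM cells 14, 15, 16 and 19. It was 1810, 1361, 1999, 2139 and 2840 in JG cells 4 to 8, and 9630 to 10073 in diluted cortex. MM cell 16 stood apart from the other MM cells and lay within the range of the JG cells, so results are given with and without it where it matters. In the cortex lysate, fewer cells of a type and less RNA per cell cannot be told apart.

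The labels were checked against marker genes. Of 7 measured JG markers, Crip1, Rgs5, Gja4 and Acta2 were above background in the JG cells (1 to 4 per cell). In MM cells a single marker, Crip1 in MM cell 15, was above background. The summed signal of these markers was 12.38 to 13.95 in the JG cells and 9.38 to 9.77 in the MM cells, so the groups did not overlap. Crip1 alone was above background in every JG cell, and in JG cell 5 it was the only marker that was. Without Crip1 the summed signal was 9.31 in JG cell 5, inside the 8.98 to 9.34 of the MM cells, and 10.57 to 13.48 in the remaining JG cells. Ren1, which encodes renin itself, was not analysed here. The 11 MM markers separated the groups poorly: 3 to 6 were above background per MM cell and 1 to 6 per JG cell, and their summed signals overlapped (10.70 to 11.56 and 10.64 to 11.08). Six2, a transcription factor that keeps nephron progenitors undifferentiated, measured 7.53, 7.18, 10.13 and 6.69 in MM cells 14, 15, 16 and 19 and 6.82 to 7.52 in the JG cells. Crym, whose regulatory sequence drives the reporter, measured 6.90 to 8.61 in the MM cells and 6.29 to 7.77 in the JG cells. MM cell 16 held the highest value of both genes, and the other MM cells overlapped the JG cells. By these markers JG cells 4, 6, 7 and 8 stood apart from the MM cells with and without Crip1, and JG cell 5 did so through Crip1 alone. JG cell 8 also held 6 of the 11 MM markers above background. For most MM cells the label rests on dissection and fluorescence rather than on marker RNA.

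Far more genes leaned towards the MM side than towards the JG side. The MM mean was at least 2 log2 units (4-fold) above the JG mean for 723 genes, 3.63% of 19938, and the JG mean was that far above the MM mean for 37 genes, 0.186%. Past a difference of 4 the counts were 88 and 4. The median difference over all genes was -0.19 and that of the receptors -0.21, so the background itself was slightly higher in the JG cells. Among 9158 genes above background in all 3 diluted cortex libraries, 702 (7.67%) were higher in the MM cells and 36 (0.393%) in the JG cells. So 702 of the 723 genes on the MM side were also present in adult cortex RNA.

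**Figure D1:**
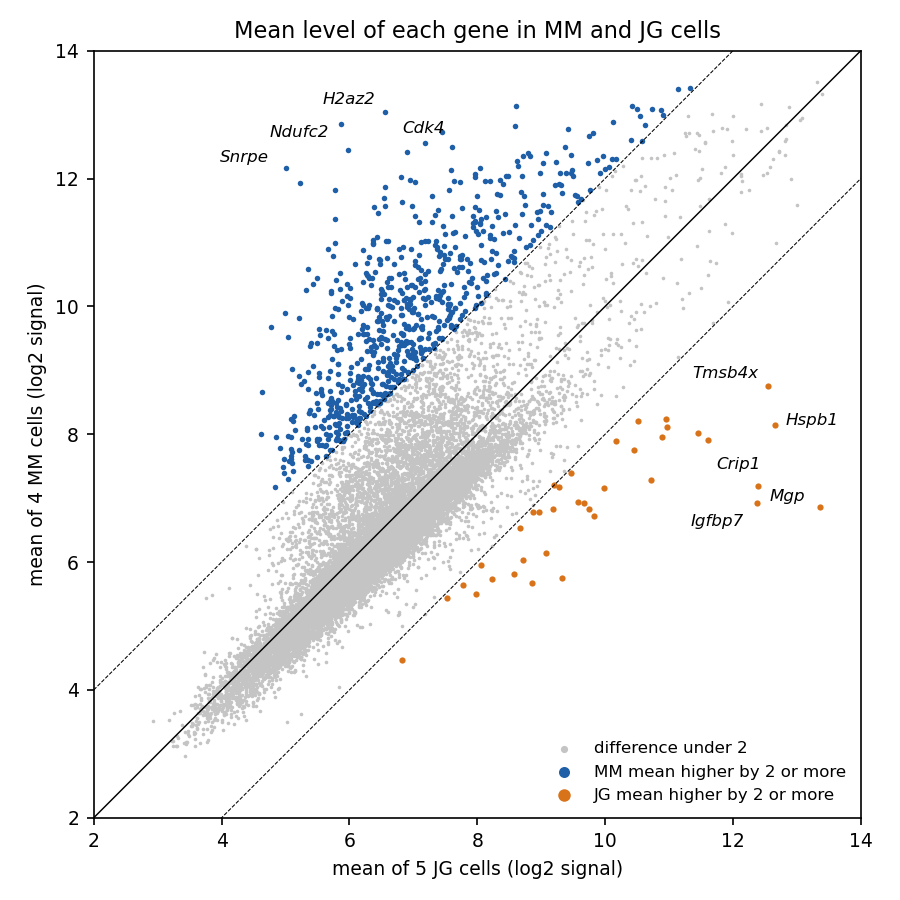
Mean log2 signal of each of the 19938 genes in the 5 JG cells (x axis) and the 4 MM cells (y axis), with the line of equality and dashed lines at a difference of 2. The 723 genes higher in the MM cells (blue) form a broad field, and the 37 higher in the JG cells (orange) form a thin group led by Mgp, Igfbp7 and Crip1.

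All 20 pairs of an MM cell and a JG cell were also set side by side, and the excess on the MM side varied widely between pairs. In the 10 pairs with MM cell 14 or 19, between 84.4% and 94.8% of genes that differed by 2 or more were higher in the MM cell. MM cell 15 and JG cell 8, which had 3150 and 2840 genes above background, gave 1033 genes higher in the MM cell and 157 in the JG cell (86.8%). The 5 pairs with MM cell 16, which had 2173 genes above background, gave 34.9% to 74.5%. The pair with JG cell 7 (2139 genes above background) gave 244 genes higher in the MM cell and 456 in the JG cell (34.9%), and it alone of the 20 pairs leaned to the JG side. The pair with JG cell 6 (1999) gave 298 and 205 (59.2%), that with JG cell 4 (1810) 361 and 176 (67.2%), and that with JG cell 5 (1361) 356 and 122 (74.5%). JG cell 8 had more genes above background (2840) than MM cell 16, and this pair still leaned to the MM side, with 319 and 247 (56.4%). The shares above 84% with MM cells 14 and 19 came with 1273 to 2846 more genes above background in the MM cell. With MM cell 16 the share rose from 34.9% to 74.5% over JG cells 7, 6, 4 and 5. Over the same pairs the lead of MM cell 16 in genes above background rose from 34 to 812. JG cell 8 was outside this order, with a lead of -667 and a share of 56.4%. With MM cell 15 the lowest share was 73.8%, against JG cell 7 at a lead of 1011. That was below the 86.8% against JG cell 8 at a lead of 310. MM cell 16 against JG cells 6, 7 and 8 together gave 276 genes higher in MM and 233 higher in JG. The part of the gene number in the 723 and 37 genes was not tested.

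**Figure D2:**
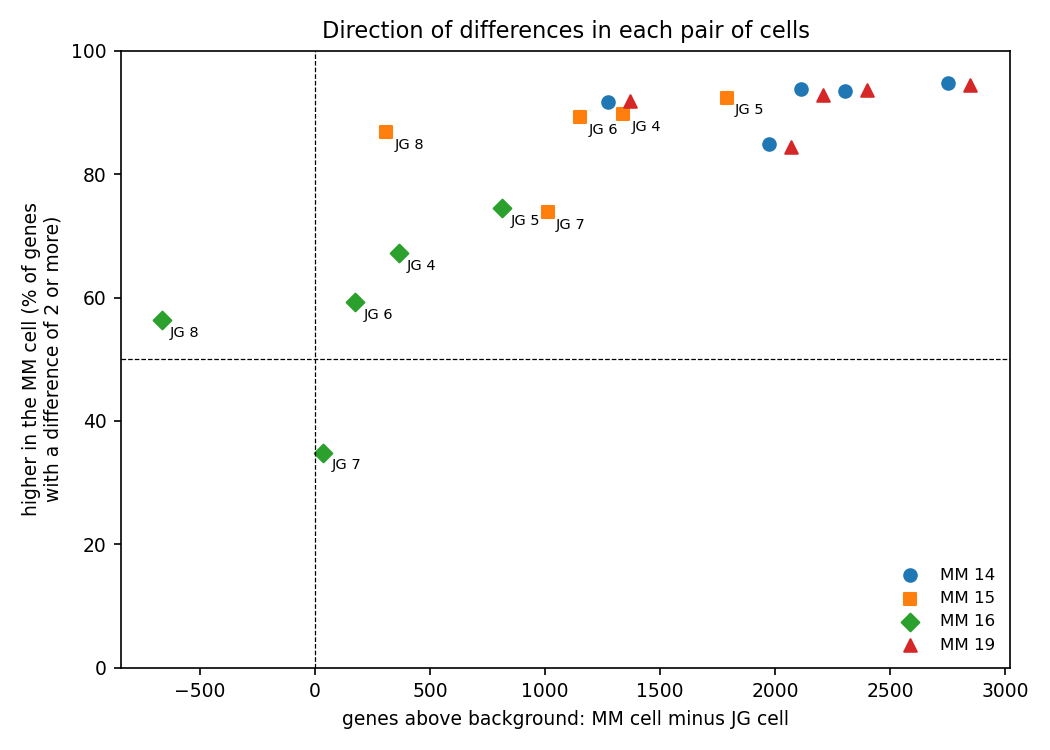
Each of the 20 pairs of an MM and a JG cell, by the difference in the number of genes above background (x axis) and the percent of genes differing by 2 or more that were higher in the MM cell (y axis). Pairs of MM cells 15 and 16 carry the number of the JG cell; pairs with MM cell 14 or 19 lie above 84%, and the pair of MM cell 16 and JG cell 7 lies at 34.9%.

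Genes present throughout a group and absent from the other were few. Every MM cell and no JG cell was above background for 65 genes (0.326%), and every JG cell and no MM cell for 2 genes (0.01%), Mgp and Serpinf2. Leaving out MM cell 16 raised the first count to 324, and leaving out MM cell 15 raised it to 106. The second count was 7 without JG cell 5 or without JG cell 7, 5 without MM cell 15 and 4 without JG cell 6. All 9 cells were above background for 571 genes (2.86%), and no cell for 12997. Every MM cell lay above every JG cell for 225 genes (1.13%), with a median difference of 2.91. Every JG cell lay above every MM cell for 1367 genes (6.86%), but their median difference was -0.60 and 943 of them had no JG cell above background.

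**Figure D3:**
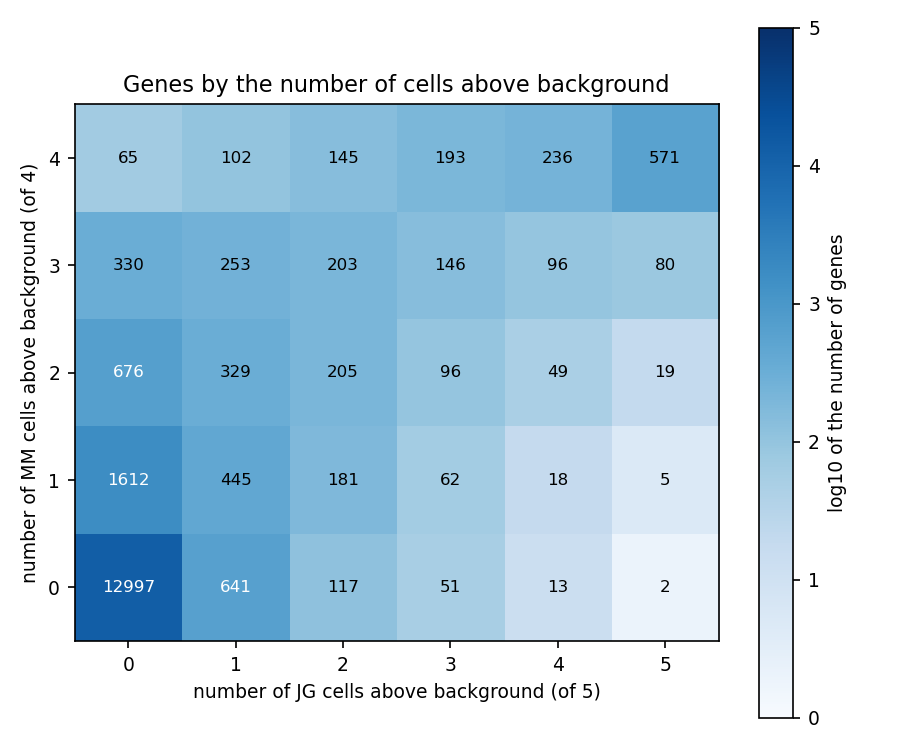
Number of genes by how many of the 5 JG cells (x axis) and of the 4 MM cells (y axis) were above background, coloured by the log10 of the number. The corner for every MM cell and no JG cell holds 65 genes and the opposite corner 2, while 571 genes were above background in all 9 cells and 12997 in none.

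The 15 genes farthest above the JG cells are given first. Snrpe, a core Sm protein of the spliceosomal particles, measured 11.90, 12.24, 12.32 and 12.20 in MM cells 14, 15, 16 and 19, and 5.11, 5.77, 5.02, 4.75 and 4.40 in JG cells 4 to 8. All MM cells were alike and all JG cells were under background, so the mean difference of 7.15 stands for at least 21.6-fold, taking the mean background of the JG arrays as the JG level; the same bound is used below. Diluted cortex held Snrpe at 10.43. The histone variant H2az2 was also even, at 12.80 to 13.28 in the MM cells and 5.51 to 7.14 in the JG cells (at least 39.7-fold higher in the MM cells).

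Cdk4, the kinase that moves cells from G1 towards S phase, measured 12.42, 12.23, 12.58 and 12.42 in the MM cells and 6.48, 6.98, 7.27, 6.92 and 6.85 in the JG cells. No cell of either group came near the other group, and the bound was 25.7-fold. Ranbp1, which regulates the nuclear transport GTPase Ran, measured 12.63, 12.73, 12.35 and 12.51 in the MM cells and 6.41 to 7.52 in the JG cells, at least 28.4-fold. Ran itself had a mean of 10.97 ± 0.50 (SD over 4 cells) in the MM cells and 6.37 ± 1.08 (SD over 5 cells) in the JG cells, where JG cell 8 reached 8.01. Snrpe, H2az2, Cdk4, Ranbp1 and Ran were also high in MM cell 16, the MM cell with fewest genes above background. The ranking holds only genes whose groups do not overlap. For all but Ran, a value in MM cell 16 above every JG cell was therefore required.

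The co-chaperonin Hspe1, which closes the folding chamber of mitochondria, measured 11.40 to 12.71 in the MM cells and 4.74 to 5.71 in the JG cells, and its other probe set differed by 6.91. Ndufc2, a subunit of respiratory complex I, measured 12.27 to 12.64 in the MM cells and 5.63 to 6.28 in the JG cells. Fkbp3, a nuclear prolyl isomerase, measured 11.27 to 12.49 and 5.22 to 6.19. For each of these genes no JG cell was above background, and the bounds were 18.4-fold, 26.4-fold and 17.2-fold.

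Other genes at the top of the ranking were less even. Prdx2, a peroxiredoxin that removes hydrogen peroxide, was at 12.36 to 13.32 in the MM cells but also at 11.17 in JG cell 6, against 3.89 to 5.13 in the remaining JG cells. The zinc finger gene Zfp706 ranged from 8.38 in MM cell 15 to 13.07 in MM cell 16, with JG cells at 5.31 to 6.35. Its other probe set differed by only 0.99. Anp32b, an acidic nuclear protein that binds histones, measured 11.36 to 12.17 in MM cells 14, 15 and 16 but 8.11 in MM cell 19, against 5.05 to 7.15 in the JG cells. The mean difference of 6.99 for Prdx2 therefore averages a JG group with a high cell. No JG cell was above background for Zfp706 or Anp32b, and the MM means stand for at least 12.5-fold and 8.99-fold.

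The remaining genes of the first 15 were Srsf9, Eif4a3, Pomp, Ppp1ca and Eid1. Srsf9, a splicing factor of the SR family, measured 10.95 to 12.97 in the MM cells and 6.16 to 6.76 in the JG cells. Eif4a3, the helicase of the exon junction complex, measured 10.72, 10.78, 11.68 and 10.80 in the MM cells and 4.79 to 6.54 in the JG cells. Pomp, which assembles the proteasome, measured 12.10 to 12.23 in 3 MM cells and 9.67 in MM cell 16, with JG cells at 5.60 to 7.80. Ppp1ca, a catalytic subunit of protein phosphatase 1, measured 11.04 to 12.58 and 6.10 to 7.81, and Eid1, an inhibitor of p300 acetyltransferase activity, 9.48 to 11.11 and 4.60 to 5.70. All of the first 15 were above background in each diluted cortex library, at means of 9.53 to 12.64, so these genes were also read in adult RNA. Outside the first 15 but with one of the widest gaps between the groups, Nudc, which works with dynein and as a co-chaperone, was at 10.95 to 11.92 in the MM cells and 5.60 to 6.85 in the JG cells, but its other probe set differed by 1.74.

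**Figure D4:**
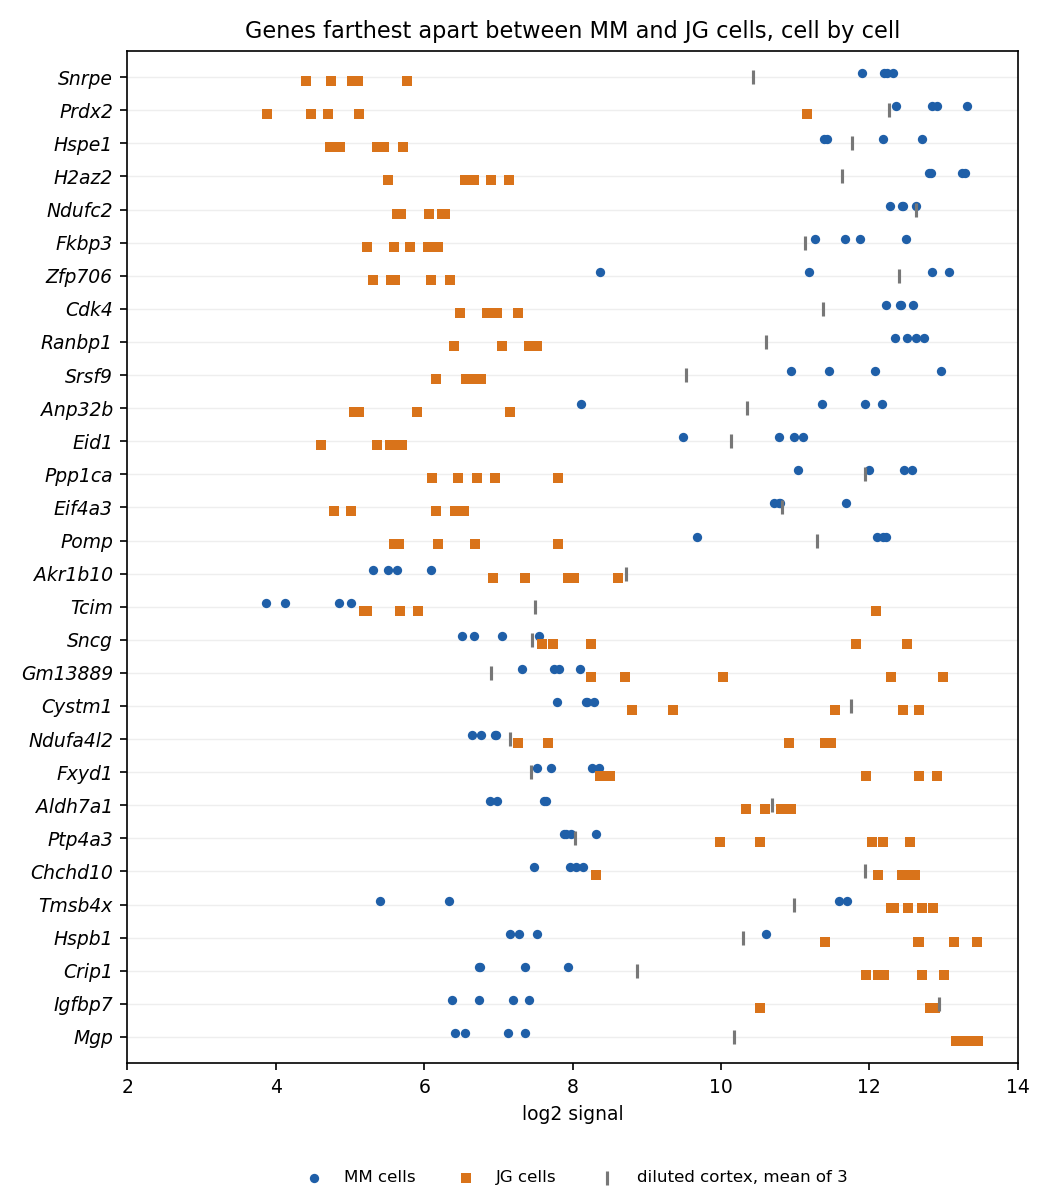
Log2 signal (x axis) in every MM cell (blue circles) and JG cell (orange squares), with the mean of the 3 diluted cortex libraries (grey bar), for the 15 genes with the largest difference each way among genes whose groups do not overlap. Snrpe, Cdk4, Ndufc2 and Mgp form tight clusters in both groups, while Tcim, Sncg, Fxyd1 and Gm13889 are high in some JG cells only.

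Splicing genes were higher in the MM cells as groups. Of 36 measured snRNP and LSm genes, 16 were higher in the MM cells by 2 or more and none in the JG cells, with a median difference of 1.69 beside -0.19 for all genes. Of 28 SR and hnRNP genes the counts were 14 and 0, with a median of 2.10. Beside the counts of these and all later lists, 3.63% of all genes and 7.67% of genes present in cortex were higher in the MM cells. In the JG cells these shares were 0.186% and 0.393%. Hnrnpd, which binds AU-rich elements of mRNAs, measured 9.70 to 11.41 in the MM cells and 4.83 to 6.18 in the JG cells. Pcbp2, a poly(C) binding protein, measured 11.07 to 12.06 and 6.05 to 7.20. Sf3b5 of the U2 particle was at 10.80 to 11.87 in the MM cells but at 11.26 in JG cell 6, and at 5.98 to 6.64 in the remaining JG cells. Snrpa1, also of U2, was at 10.58 to 12.18 in 3 MM cells and 4.92 in MM cell 16, and Lsm3 at 9.94 to 12.36 in 3 MM cells and 6.70 in MM cell 14. Both lay at 5.21 to 6.76 in the JG cells. In MM cell 16, 9 of the 28 SR and hnRNP genes were above background, against 22 to 26 in the remaining MM cells and 4 to 13 in the JG cells. With MM cell 16 set against JG cells 6, 7 and 8 the median of these 28 genes was -0.29, and without MM cell 16 it was 2.86.

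Protein folding and degradation gave the largest list differences. Of 38 chaperones and chaperonins 25 were higher in the MM cells, 65.8% beside 7.67% of genes present in cortex, and none in the JG cells, with a median of 2.74. Cct5, a subunit of the cytosolic chaperonin that folds actin and tubulin, measured 12.41, 12.10, 11.13 and 11.17 in the MM cells and 5.68 to 7.41 in the JG cells, and the groups did not overlap. The prefoldin subunit Pfdn5, which hands substrates to that chaperonin, measured 12.04 to 13.05 in the MM cells but 13.39 in JG cell 4, above every MM cell, and 5.62 to 7.18 in the remaining JG cells.

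Of 31 proteasome genes 21 were higher in the MM cells and none in the JG cells, with a median of 2.50. Psma1 of the alpha ring measured 9.81 to 12.61 in the MM cells and 5.89 to 6.92 in the JG cells, and Psmb1 of the beta ring 8.67 to 11.90 and 5.84 to 6.87. Psma3 was high in every MM cell (9.86 to 12.33) and in JG cell 6 (12.25), and Psmd12 of the lid was at 11.33 to 11.50 in 3 MM cells but 6.69 in MM cell 16. In MM cell 16, 14 of the 31 proteasome genes were above background, as in JG cell 7, while the other MM cells had 24 to 30 and the other JG cells 6 or 7. Chaperones differed in the same way, with 13 of 38 in MM cell 16, 28 to 33 in the remaining MM cells and 2 to 10 in the JG cells. The medians of both lists stayed positive but were small for MM cell 16 against JG cells 6, 7 and 8 (0.14 for chaperones and 0.55 for the proteasome), and were 3.62 and 3.09 without MM cell 16.

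Some genes of oxidative phosphorylation were above background in every MM and JG cell, in numbers that differed between cells. Of 35 complex I genes 10 were higher in the MM cells (median 1.55), of 24 genes of complexes II to IV 8 were (median 1.49), and of 16 ATP synthase genes 7 were (median 1.96). Of these lists Uqcrb alone, a subunit of complex III, was higher in the JG cells by 2 or more. For ATP synthase the JG cells differed among themselves more than the MM cells did: the median of its genes was 7.78 and 7.36 in JG cells 4 and 5 but 12.11 to 12.42 in JG cells 6 to 8, beside 11.99 to 12.19 in the MM cells. Without JG cells 4 and 5 the median difference of this list was 0.44. Atp5k, a small membrane subunit of ATP synthase, measured 11.59 to 12.42 in the MM cells and 5.75, 8.56, 12.64, 7.09 and 6.56 in JG cells 4 to 8. JG cell 6 was thus above every MM cell while JG cells 4, 7 and 8 were under background.

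Complex I divided the cells in another way, with 30 to 34 of 35 genes above background in MM cells 14, 15 and 19, 21 in MM cell 16, 21 and 24 in JG cells 6 and 7, and 14 or 15 in JG cells 4, 5 and 8. JG cell 8, among the high cells for ATP synthase, had the lowest JG median for complex I (7.07). Ndufs4, an accessory subunit, was at 11.35 to 12.58 in MM cells 14, 16 and 19 and 6.26 in MM cell 15, with JG cells at 5.95 to 6.93. Tomm20, a receptor for proteins imported into mitochondria, was at 12.49 to 12.95 in the MM cells and at 12.97 in JG cell 5, but 5.59 to 6.64 in the remaining JG cells. Mrps12 of the mitochondrial ribosome measured 9.78 to 11.77 in the MM cells and 6.17 to 6.98 in the JG cells. It belongs to a list of 36 import and mitochondrial ribosome genes, of which 12 were higher in the MM cells and none in the JG cells (median 1.27).

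Cytosolic ribosomal proteins did not separate the groups once JG cells 4 and 5 were set aside. Of 33 large subunit genes 12 were higher in the MM cells (median 1.07) and of 23 small subunit genes Rps7, Rps15, Rps25, Rps27l and Rps28 were (median 1.06). The median level of the large subunit genes was 12.52 to 12.76 in the MM cells and 12.32 to 12.44 in JG cells 6, 7 and 8, but 8.21 and 8.71 in JG cells 4 and 5. Without these cells the median differences were 0.10 for the large and -0.15 for the small subunit. Rps7 showed the split, at 12.58 to 12.72 in the MM cells, 11.91 to 12.56 in JG cells 6 to 8 and 5.87 and 6.12 in JG cells 4 and 5. Rpl10a was at 11.99 to 12.76 in the MM cells, 12.45 and 13.13 in JG cells 7 and 8, and 5.81 to 6.51 in JG cells 4, 5 and 6.

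Translation factors were higher in the MM cells for 14 of 28 genes and in the JG cells for none, with a median of 1.97. Eif3m, a subunit of the initiation factor that joins mRNA to the small subunit, measured 11.66 to 12.36 in the MM cells, 12.07 in JG cell 7 and 6.68 to 7.44 in the remaining JG cells. The mRNA helicase Eif4a1 was at 12.09 to 12.52 in MM cells 14, 15 and 19 and 12.25 in JG cell 7, but at 7.01 in MM cell 16 and 5.59 to 6.05 in the remaining JG cells. Pabpc1, which binds poly(A) tails, was at 11.05 to 11.81 in those 3 MM cells, 7.38 in MM cell 16 and 6.14 to 7.75 in the JG cells. MM cell 16 had 10 of the 28 genes above background and JG cell 7 had 11, against 18 to 25 in the remaining MM cells and 4 to 8 in the remaining JG cells. Nucleolar and ribosome assembly genes gave 8 of 32 higher in the MM cells and none in the JG cells (median 0.82), among them the nucleolar chaperone Npm1, at 10.14 to 10.52 in the MM cells and 3.84 to 7.87 in the JG cells.

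Replication genes differed between MM cells more than any other cell cycle list. Of 43 genes 12 were higher in the MM cells and none in the JG cells, with a median of 1.24. MM cells 14 and 19 had 33 and 25 of them above background, MM cell 15 had 12 and MM cell 16 had 4, while JG cells had 2 to 4. Pcna, the clamp that holds DNA polymerase on its template, measured 12.78, 12.81, 7.44 and 12.64 in MM cells 14, 15, 16 and 19, and 11.64 in JG cell 6 with 5.40 to 6.39 in the remaining JG cells. Slbp, which binds the stem loop of histone mRNAs in S phase, was at 11.08 to 11.42 in 3 MM cells, 6.39 in MM cell 16 and 5.19 to 6.95 in the JG cells. Pcna and Slbp were thus high in 3 of 4 MM cells, and a high Pcna value also occurred in an adult cell. Without MM cell 14 the median of the replication list was 0.43, and for MM cell 16 against JG cells 6, 7 and 8 it was -0.07.

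The other cell cycle lists had lower shares of genes higher in the MM cells. Of 19 G1-S genes 2 were (10.5%, beside 3.63% of all genes and 7.67% of genes present in cortex), Cdk4 and Myc, and the median was 0.66 but 0.05 without MM cell 14. Myc, a growth-promoting transcription factor, measured 11.13, 10.87, 5.90 and 9.06 in the MM cells and 5.73 to 6.96 in the JG cells. Cdk2, which drives S phase entry after Cdk4, measured 11.64 and 9.09 in MM cells 14 and 19, with MM cells 15 and 16 (6.80 and 6.59) inside the 6.18 to 7.26 of JG cells. Of 39 mitotic genes 6 were higher in the MM cells (15.4%) and none in the JG cells, with a median of 0.07. Cks1b, a subunit of cyclin-dependent kinases, was at 10.38 to 12.82 in the MM cells and 12.40 in JG cell 6, and Ube2c, which helps to destroy mitotic cyclins, at 10.15 to 11.90 in 3 MM cells, 6.50 in MM cell 15 and 6.66 to 7.23 in the JG cells. Of 28 Ran and nuclear transport genes only Ranbp1 and Ran passed a difference of 2 (7.14%), with a list median of 0.11.

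Chromatin genes were higher in the MM cells for 14 of 38 members and in the JG cells for none (median 1.01). Every MM cell lay above every JG cell for 7 of the 38, beside 1.13% of all genes, and every JG cell above every MM cell for 1, beside 6.86%. Hmgn2, a nucleosome binding protein, measured 13.69, 13.66, 11.94 and 13.28 in the MM cells and 7.99 to 8.95 in the JG cells, although its 4 other probe sets differed by 0.85 to 4.12. H2az1, the sister gene of H2az2, was at 12.67 to 12.88 in the MM cells and 12.31 in JG cell 6, but at 6.89 to 8.85 in the remaining JG cells. So 1 of the 2 H2A.Z genes was absent from every JG cell and the other was high in JG cell 6, the JG cell that also held Pcna, Cks1b, Prdx2, Psma3 and Sf3b5.

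Smaller differences were seen in cytoskeletal, antioxidant and glycolytic genes. Of 15 tubulin and microtubule genes 6 were higher in the MM cells (median 0.98). Tubb5, a beta tubulin, measured 12.95, 12.59, 8.72 and 13.04 in the MM cells and 6.42 to 9.31 in the JG cells, and Tuba1a, an alpha tubulin, 12.22 to 12.48 in the MM cells with 12.74 and 11.79 in JG cells 4 and 7 and 5.48 to 7.27 in the remaining JG cells. Of 24 antioxidant genes 6 were higher in the MM cells (median 0.83). Sod2, the superoxide dismutase of mitochondria, was at 9.93 to 10.78 in 3 MM cells and 5.09 in MM cell 16, and at 10.58 in JG cell 8 with 4.79 to 5.31 in the others. Of 16 glycolysis genes Hk1, Pgam1, Pgk1 and Pkm were higher in the MM cells (median 0.62). Pgam1 was at 11.72 to 12.06 in 3 MM cells, 7.34 in MM cell 16 and 6.07 to 7.32 in the JG cells. Hk1 was at 12.34 to 12.83 in the MM cells and 12.07 to 12.88 in JG cells 6 to 8. Its difference thus came from low values in JG cells 4 and 5, and its other probe set differed by -0.32. None of these lists had a member 2 or more higher in the JG cells.

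**Figure D5:**
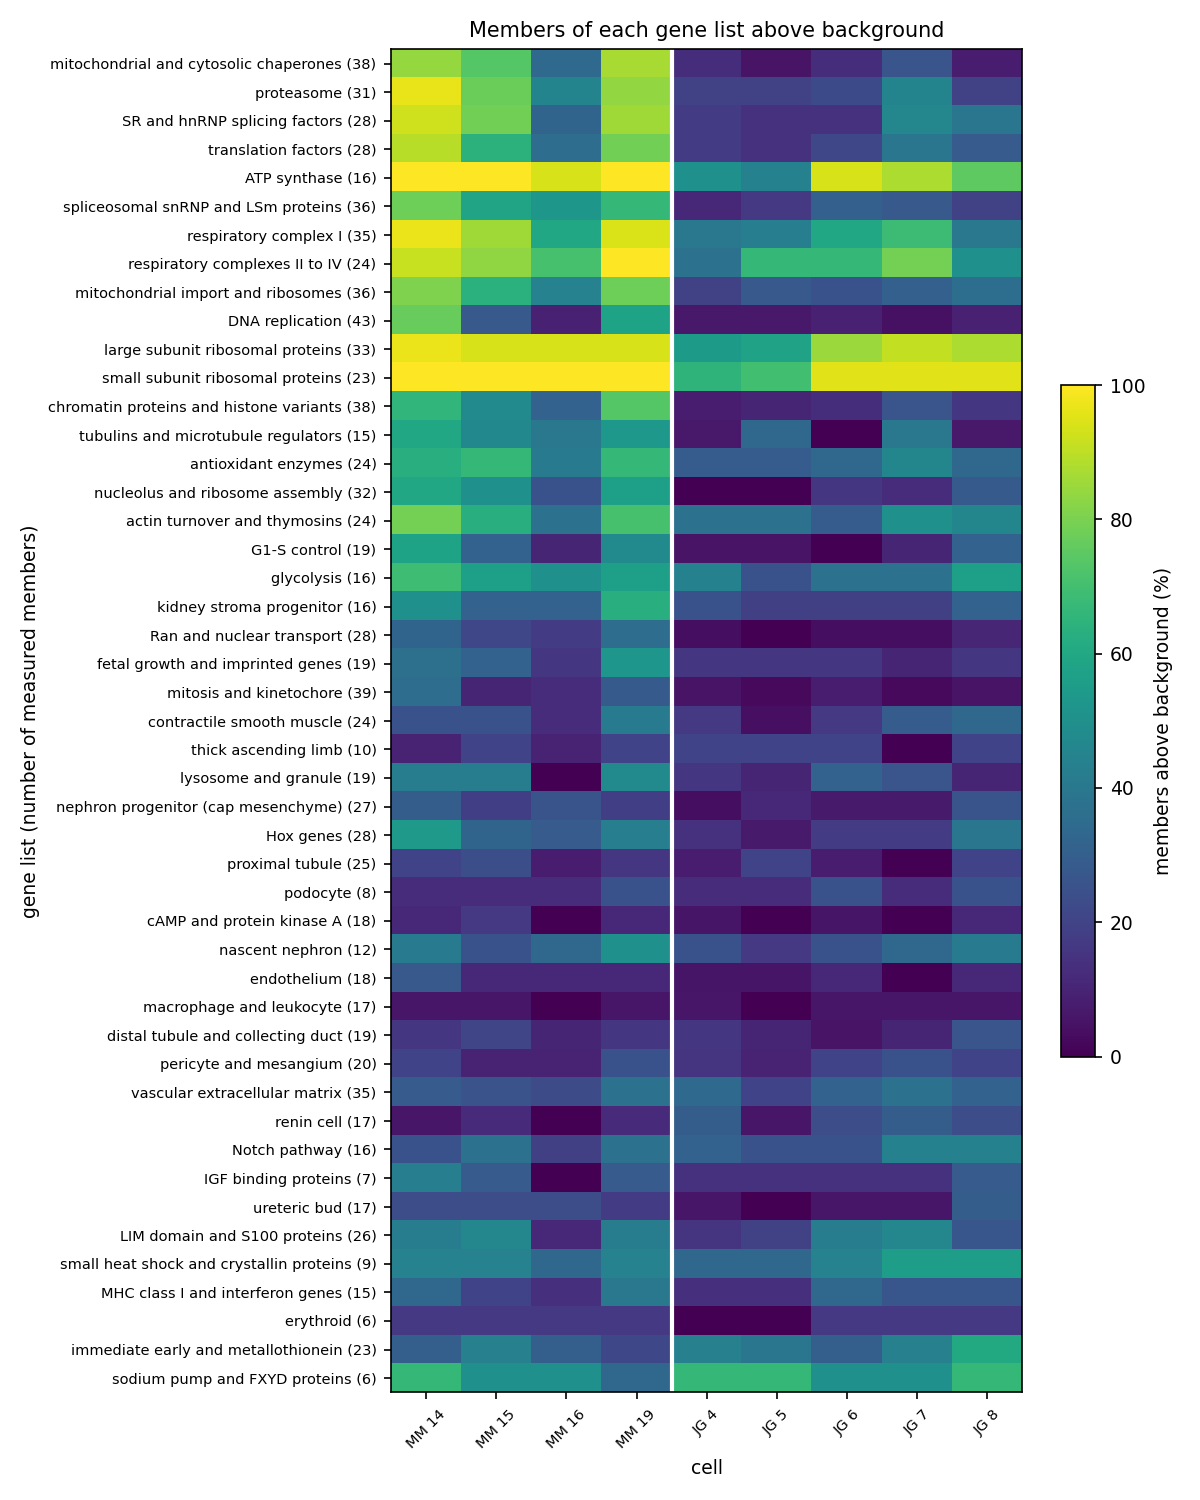
Percent of the measured members of each gene list (rows, with the number of members) above background in each MM and JG cell (columns), rows ordered by the median MM minus JG difference from high to low. MM cells 14, 15 and 19 stand out in the upper rows, MM cell 16 is closer to the JG cells there, and JG cells 4 and 5 are lower than the other JG cells for ribosomal and ATP synthase genes.

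Among genes higher in the JG cells the largest differences were those of Mgp, Igfbp7 and Crip1. Mgp, a matrix protein that inhibits calcification of vessel walls, measured 13.46, 13.41, 13.16, 13.45 and 13.31 in JG cells 4 to 8 and 6.42 to 7.35 in the MM cells. It was the most even of these genes, with no MM cell above background and at least 66.2-fold more signal in the JG cells. Igfbp7, a secreted protein of blood vessels that binds insulin-like growth factors, measured 12.88, 12.83, 10.53, 12.84 and 12.81 in the JG cells and 6.37 to 7.42 in the MM cells, where it passed background in MM cell 14. JG cell 6 was the low cell for Igfbp7 and still above every MM cell. Crip1, a small LIM domain protein enriched in renin-producing cells, measured 11.96 to 13.01 in the JG cells and 6.74 to 7.93 in the MM cells.

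Diluted cortex, which contains vessels among many other cells, held Mgp at 10.17, Igfbp7 at 12.94 and Crip1 at 8.87. Of 35 vascular matrix genes Mgp alone was higher in the JG cells by 2 or more (2.86%, beside 0.186% of all genes), and the list median was -0.29. Every JG cell lay above every MM cell for 8 of the 35, beside 6.86% of all genes. With each array centred on its receptor median, the list median was -0.08, beside 0.01 for all genes. Of 7 IGF binding proteins Igfbp7 was higher in the JG cells and Igfbp4 in the MM cells. Igfbp4, which restrains insulin-like growth factor signals, measured 12.40, 13.10, 6.60 and 11.50 in MM cells 14, 15, 16 and 19 and 6.46 to 7.09 in the JG cells, so MM cell 16 lay with the JG cells.

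Stress and actin genes of the JG side were uneven in the MM cells. The small heat shock protein Hspb1, which guards actin filaments, measured 11.40 to 13.46 in the JG cells, 7.15 to 7.52 in 3 MM cells and 10.61 in MM cell 19, and its other probe set differed by -4.44. Tmsb4x, a thymosin that sequesters actin monomers, measured 12.29 to 12.86 in the JG cells, but 11.59 and 11.69 in MM cells 14 and 19 and 5.40 and 6.33 in MM cells 15 and 16. No MM cell reached a JG cell for either gene. The inducible chaperone Hspa1a measured 9.70, 10.54, 8.67, 7.93 and 11.08 in JG cells 4 to 8 and 7.49 to 8.02 in the MM cells, and those groups overlapped at JG cell 7. Of 9 genes in the small heat shock and crystallin list, which also holds Hspa1a and Bag3, Hspb1 alone differed by 2 or more. Of 24 actin genes Tmsb4x was higher in the JG cells and Arpc4, Arpc5, Cfl2 and Pfn1 in the MM cells.

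Several mitochondrial and enzyme genes were on the JG side. Chchd10, a protein of the mitochondrial intermembrane space, measured 12.11 to 12.62 in JG cells 5 to 8 and 8.32 in JG cell 4, against 7.48 to 8.14 in the MM cells. Aldh7a1, an aldehyde dehydrogenase of lysine breakdown, was even in both groups, at 10.34 to 10.95 in the JG cells and 6.89 to 7.64 in the MM cells. Ndufa4l2, a homologue of a cytochrome oxidase subunit that is known from pericytes, measured 11.49, 11.41 and 10.92 in JG cells 5, 6 and 7 and 7.67 and 7.27 in JG cells 4 and 8, with no MM cell above background (6.64 to 6.97). Akr1b10, an aldo-keto reductase, was low in both groups, at 6.93 to 8.61 in the JG cells and 5.31 to 6.09 in the MM cells.

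The phosphatase gene Ptp4a3 measured 12.55, 9.98, 10.52, 12.03 and 12.19 in the JG cells and 7.89 to 8.32 in the MM cells. Fxyd1, a regulator of the sodium pump in muscle, was at 11.95 to 12.92 in JG cells 6 to 8 but 8.37 and 8.50 in JG cells 4 and 5, just above the highest MM cell at 8.36. Cystm1, a small cysteine-rich membrane protein, showed the same split, at 11.54 to 12.67 in JG cells 6 to 8, 9.35 and 8.80 in JG cells 4 and 5 and 7.79 to 8.28 in the MM cells. JG cells 4 and 5, which had the fewest genes above background, were thus the low cells for Fxyd1 and Cystm1. The number of genes higher in the JG cells by 2 or more was 56 without JG cell 4, 62 without JG cell 5 and 95 without both.

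Other genes of the JG side were high in some JG cells and near background in the rest. Sncg, a synuclein, measured 11.82 and 12.51 in JG cells 4 and 8 and 7.59 to 8.25 in the others. The predicted gene Gm13889 measured at least 12.29 in JG cells 4 and 7, 10.02 in JG cell 8 and 8.70 and 8.25 in JG cells 5 and 6. Tcim, a small regulator of the Wnt pathway, measured 12.09 in JG cell 4 and 5.18 to 5.92 elsewhere, with MM cells at 3.87 to 5.01. For Tcim the groups do not overlap, yet a single cell carries the mean difference of -2.36. Serpinf2, which encodes the plasmin inhibitor alpha-2-antiplasmin, met the background rule in every JG cell by little: JG cells held it at 7.62 to 8.14 and MM cells at 6.50 to 7.40, at least 1.46-fold more signal in the JG cells.

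Of the renin cell and mural cell genes described here, Crip1 was high in every JG cell, and most others were high in some JG cells only. Of 17 renin cell genes, Crip1 and Rgs5 were higher in the JG cells by 2 or more and none in the MM cells, and the list median was -0.31. Rgs5, a brake on G protein signals in pericytes, measured 10.44, 9.76 and 10.55 in JG cells 4, 6 and 7, 6.82 and 5.99 in JG cells 5 and 8 and 5.44 to 7.12 in the MM cells. Gja4, the connexin 37 of vessel walls, was at 12.23 in JG cell 7 and 6.88 to 9.08 elsewhere, with MM cells at 6.62 to 7.13. The angiotensin receptor Agtr1a was at 7.38 to 8.68 in the JG cells and 5.92 to 6.60 in the MM cells, so the groups did not overlap. It passed background in 4 of 5 JG cells and in no MM cell, which stands for at least 1.64-fold more signal in the JG cells.

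Of 24 contractile smooth muscle genes none was higher in the JG cells by 2 or more, and Tpm1 was higher in the MM cells. Acta2, the actin of smooth muscle, measured 6.57, 6.02, 6.93, 12.20 and 11.32 in JG cells 4 to 8 and 6.26 to 7.11 in the MM cells. It was high in JG cells 7 and 8 only, so the JG mean of 8.61 lies near no cell. Pln, an inhibitor of the calcium pump of the sarcoplasmic reticulum, was at 12.32 in JG cell 8 and at 6.21 to 6.57 in the others. Sparcl1, a matrix protein of mural cells, was at 12.51 in JG cell 7, 8.19 in JG cell 6 and 6.58 to 7.19 in the rest. Tpm1, an actin-binding tropomyosin, was at 9.48 to 11.21 in MM cells 14, 15 and 19, 5.70 in MM cell 16 and 6.40 to 8.35 in the JG cells.

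The LIM and S100 list held members of both sides, with 2 of 26 (7.69%) higher in each group and a median of -0.46. On the MM side this share was near the 7.67% of genes present in cortex. On the JG side it stood beside 0.186% of all genes and 0.393% of genes present in cortex. Crip1 and S100a1 were higher in the JG cells, and S100a1, a calcium sensor of muscle, was carried by JG cells 5 and 6 (11.14 and 12.83). Csrp2, a LIM protein of developing smooth muscle, was at 11.10 to 11.89 in MM cells 14, 15 and 19, 5.98 in MM cell 16 and 5.57 to 8.49 in the JG cells. Anxa2, a membrane binding partner of S100 proteins, was at 9.82 and 11.69 in MM cells 14 and 19, 6.42 and 5.80 in the remaining MM cells and 6.05 to 6.67 in the JG cells.

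Immediate early genes respond to handling and dissociation. Of 23 immediate early and metallothionein genes none differed by 2 or more. Their median of -0.54, beside -0.19 for all genes, leaned to the JG side. With each array centred on its receptor median, the list median was -0.33, beside 0.01 for all genes. The median level of these genes was 6.54 to 6.93 in the MM cells and 6.80 to 8.04 in the JG cells. Every JG cell lay above every MM cell for 3 of the 23, beside 6.86% of all genes. Single cells differed strongly. Junb, a transcription factor of the AP-1 family, was at 12.29 in JG cell 4 and 7.71 to 8.48 in the remaining JG cells, with MM cells at 6.65 to 7.59. Zfp36, which marks AU-rich mRNAs for decay, was at 9.89 and 10.89 in JG cells 4 and 7 and 6.70 to 6.97 in the others, with MM cells at 5.80 to 6.56. Ier2, another gene of this list, leaned to the MM side by 1.90. It was at 8.17 to 11.09 in the MM cells, 10.93 in JG cell 8 and 6.70 to 7.58 in the remaining JG cells. Dissociation differed with the groups and cannot be told apart from them. B2m, the light chain of MHC class I molecules, was at 12.57 and 11.86 in JG cells 6 and 7, 4.90 to 6.29 in the remaining JG cells and 4.15 to 7.42 in the MM cells.

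Developmental regulator lists had medians between -0.13 and 0.45. Of 27 cap mesenchyme genes none differed by 2 or more in either direction, and the median was -0.07. Of 28 Hox genes 2 were higher in the MM cells (median -0.13), 7.14% and so near the 7.67% of genes present in cortex: Hoxd10, a posterior Hox gene, measured 9.03, 5.71, 10.42 and 9.82 in the MM cells and 5.56 to 6.72 in the JG cells, and Hoxa5 10.24, 11.03, 7.15 and 10.66 in the MM cells and 7.01 to 7.92 in the JG cells. Each was high in 3 of 4 MM cells, and the cell that lacked it differed. Of 16 stromal progenitor genes Hoxd10 and Crabp1 were higher in the MM cells (12.5%, median 0.45), with Crabp1, a retinoic acid binding protein, at 11.64 and 12.49 in MM cells 14 and 19, 6.92 and 6.94 in MM cells 15 and 16 and 6.91 to 7.60 in the JG cells.

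Of 19 genes in the fetal growth and imprinted list Mest and Ndn were higher in the MM cells (10.5%), with a list median of 0.10. The 19 include Nckap1, an actin regulator outside this family. Mest, a paternally expressed gene of embryonic mesoderm, measured 12.70, 11.16, 6.64 and 12.16 in the MM cells and 5.71 to 6.43 in the JG cells, and diluted cortex held it at 5.97. Unlike most genes of the MM side, it was therefore low in adult cortex. Ndn, the imprinted necdin gene, was at 10.39 and 10.28 in MM cells 14 and 19 and 4.69 and 5.27 in MM cells 15 and 16, with JG cells at 5.08 to 6.61. MM cells 14 and 19 were alike in carrying Crabp1, Ndn, Anxa2 and Tmsb4x, which were under background in MM cells 15 and 16. They were also the MM cells with the most genes above background (4113 and 4207), and the part of that in this likeness was not tested.

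Most markers of other cell types were under background in both groups, but single cells held some at high levels. No gene differed by 2 or more among 25 proximal tubule, 10 thick ascending limb, 8 podocyte, 18 endothelial, 17 macrophage and leukocyte, 6 erythroid, 17 ureteric bud and 12 nascent nephron genes, and the medians of these lists were -0.50 to -0.05. Of the proximal tubule genes 2 to 6 were above background per MM cell and 0 to 5 per JG cell, of the endothelial genes 2 to 5 and 0 to 2, and of the macrophage and leukocyte genes at most 1 in any cell. JG cell 5 held the proximal tubule genes Miox, an oxygenase of inositol breakdown, at 12.63 and Spp2, a secreted phosphoprotein, at 12.37, near or above their diluted cortex means of 12.39 and 11.37. No other MM or JG cell was above background for Miox or Spp2. Gpx3, a secreted glutathione peroxidase of the proximal tubule, was at 12.37 in JG cell 5 and under background in the remaining JG cells, but above it in 3 MM cells, with 11.57 in MM cell 19 and 8.87 in MM cell 15. JG cell 5 was also the high cell for Fxyd2, a sodium pump regulator of tubules, at 12.30 against 7.91 to 8.54 in the remaining JG cells, and for the endothelial claudin Cldn5, at 10.77. The endothelial surface protein Emcn was at 11.77 in MM cell 14 and 5.32 to 6.35 in every other MM and JG cell. Among 19 distal tubule and collecting duct genes S100g was higher in the JG cells and Hsd11b2 in the MM cells (median -0.25). S100g, the calcium binding protein calbindin-D9k, measured 13.05 and 13.07 in JG cells 5 and 8, 6.20 to 6.60 in JG cells 4, 6 and 7 and 5.44 to 6.64 in the MM cells, with 12.21 in diluted cortex. Only 2 and 5 of the 19 genes were above background in JG cells 5 and 8, and 1 to 3 in the remaining JG cells. Hsd11b2, which inactivates glucocorticoids, was at 11.24 and 11.01 in MM cells 15 and 19, 8.45 and 7.92 in MM cells 14 and 16 and at most 8.14 in the JG cells. The part of material from other cells in these values was not tested.

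Promoter sequence was read for the genes above to set genes of each side beside each other, from RefSeq tables on build GRCm38.p6, as the 250 bases before the first listed start of a gene. Of the 723 genes higher in MM cells 590 matched the table, and 25 of the 37 higher in the JG cells. Mgp and Aldh7a1 had no entry. In the windows below capitals mark matches, on either strand, to TATAAA (the TATA box), CCAAT (the CCAAT box), CTTCCGG (the core of ETS family sites), CACGTG (an E-box), TTCCCGC (an E2F type site) and GGGCGG (the GC box). CACGTG reads the same on both strands, and none of these motifs contains another. Cdk4 and Ranbp1, which were even in the MM cells, are shown for that side, and Igfbp7 and Crip1, which followed Mgp in size of difference, for the JG side.
Cdk4: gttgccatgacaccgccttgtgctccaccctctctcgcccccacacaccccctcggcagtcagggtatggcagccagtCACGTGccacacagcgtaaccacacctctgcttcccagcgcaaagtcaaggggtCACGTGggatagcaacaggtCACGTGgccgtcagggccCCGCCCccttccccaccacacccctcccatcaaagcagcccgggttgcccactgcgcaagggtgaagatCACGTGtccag
Ranbp1: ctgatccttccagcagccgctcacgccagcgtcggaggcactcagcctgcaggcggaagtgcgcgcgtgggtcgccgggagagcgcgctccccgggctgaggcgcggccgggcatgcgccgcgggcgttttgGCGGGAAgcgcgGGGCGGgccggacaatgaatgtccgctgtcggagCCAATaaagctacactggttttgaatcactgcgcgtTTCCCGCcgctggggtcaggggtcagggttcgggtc
Igfbp7: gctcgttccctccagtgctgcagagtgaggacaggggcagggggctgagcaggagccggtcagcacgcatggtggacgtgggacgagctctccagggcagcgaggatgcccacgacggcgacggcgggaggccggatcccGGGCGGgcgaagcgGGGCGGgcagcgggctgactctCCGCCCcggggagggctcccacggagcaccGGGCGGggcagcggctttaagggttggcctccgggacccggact
Crip1: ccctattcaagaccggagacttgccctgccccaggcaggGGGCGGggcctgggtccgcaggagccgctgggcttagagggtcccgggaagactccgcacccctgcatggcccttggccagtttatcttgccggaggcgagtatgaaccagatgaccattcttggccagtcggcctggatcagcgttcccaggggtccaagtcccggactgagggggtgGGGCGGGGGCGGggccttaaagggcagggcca
Cdk4 (chr10:127063285-127063534, + strand) held 4 CACGTG matches and 1 GGGCGG match, and Ranbp1 (chr16:18248695-18248944, - strand) 2 TTCCCGC, 1 CCAAT and 1 GGGCGG. Igfbp7 (chr5:77408046-77408295, - strand) held 4 GGGCGG matches and Crip1 (chr12:113151762-113152011, + strand) 3, 2 of which adjoin and print as a single run. The window of Snrpe held none of the 6 motifs.

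Since 702 of the 723 genes on the MM side were above background in diluted cortex, the cortex genes are the closer reference for them. CACGTG was present in 7.03% of the 15614 windows of all measured genes, in 8.55% of those of cortex genes, in 9.49% of those of genes higher in the MM cells and in none of the 25 of genes higher in the JG cells. In the same order TTCCCGC was present in 5.33%, 6.82%, 7.80% and 4.0%, and CCAAT in 35.5%, 35.9%, 40.2% and 24.0%. TATAAA was present in 11.2%, 6.50%, 7.12% and 8.0%, so the MM side lay below all genes but slightly above cortex genes. GGGCGG was present in 46.0%, 59.3%, 64.4% and 44.0%, and most of the distance of the MM side from all genes was shared with cortex genes. CTTCCGG, the core shared by binding sites of the ETS family, was present in 9.63% of all windows, 21.0% of those on the MM side (124 of 590) and 24.0% of those on the JG side (6 of 25). The genes above background in diluted cortex held CTTCCGG in 14.4% of windows, and the genes above background in all 9 cells in 8.16%. The share of genes with CTTCCGG was thus higher on both sides than among cortex genes and among genes seen in every cell. On the JG side it rests on 6 of only 25 windows. The median span of a gene in the genome was 11245 bases on the MM side and 6029 on the JG side, 6728 for genes in all 9 cells and 18618 for genes in cortex. A match says that the letters are present and nothing about a factor at work there.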

How the data were processed

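The values analysed are the log2 probe set signals deposited by the authors, one column per array (Affymetrix mouse Gene 1.0 ST), from 2.22 to 13.98. The submitters' processing notes name Affymetrix Expression Console; for its version, summary method, normalization and genome build the sources used here give nothing. GEO's platform table listed 23410 of the probe sets, of which 21789 had a single symbol, 1621 had several and were not used, and 12147 probe sets were unlisted. Symbols were updated through Entrez identifiers for 21698 of them, and each of the 19938 genes was read from its probe set that was brightest over the 15 arrays (999 genes had several).

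From these values, group means, SDs over cells, differences (MM minus JG) and counts past a difference of 2 were computed with Python 3.11.15, numpy 2.4.6 and pandas 2.3.3. The number of arrays limits the precision. No test was used, since no label names an animal. The calculation was tested on simulated data. Recovery of known differences was required only with a spread between cells far smaller than in these data. The simulation therefore checks the arithmetic and not how reliable the counts are at the real spread. The members and gene lists were chosen with earlier results of these data known. Named genes are the 15 with the largest difference each way among genes whose groups do not overlap and whose higher mean is at least 6.19 (the median of all probe sets over the 9 cells), the 10 widest gaps each way, up to 4 genes per list, members named for their role, and label checks. Uqcrb, Rps15 and Pfn1 fall outside this rule and were named after their values were seen. Alternatives were quantile normalization, centring, a floor at background, group medians, other probe set rules and fold limits, and cells left out. MM cell 16 against JG cells 6, 7 and 8, MM cell 15 against JG cell 8, and the JG marker sum without Crip1 were added after the data were seen.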

Additional observations from a re-analysis of the deposited data

Results flagged for a closer look

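Among 99 named genes and 47 list medians, 40 values stood apart from the other cells of their group by Dixon's ratio of gap to range, in 292 groups of 4 or 5 cells. The limits used mark about 1 in 20 groups of independent, normally distributed values. The genes and lists were chosen with these data known and share cells, so the 40 cannot be weighed against that rate. MM cell 16 held 12 of the 40 values, JG cell 6 held 7 and JG cell 5 held 6, while MM cell 15 held none.

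MM cell 16 was the low cell for Pomp (9.67), Psmd12 (6.69), Eif4a1 (7.01), Pcna (7.44), Slbp (6.39), Sod2 (5.09), Pgam1 (7.34), Tubb5 (8.72), Csrp2 (5.98) and the median of the chaperones (6.71). It was the high cell for Eif4a3 (11.68) and for the median of the thick ascending limb genes (6.63). MM cell 19 was high for Hspb1 (10.61) and for the median of fetal growth genes (7.43), and MM cell 14 for Emcn (11.77) and for the median of the G1-S genes (8.99).

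JG cell 6 was the high cell for Prdx2 (11.17), Psma3 (12.25), Sf3b5 (11.26), Pcna (11.64) and Cks1b (12.40), and the low cell for Igfbp7 (10.53) and for the median of the stromal progenitor genes (6.34). JG cell 4 was high for Tcim (12.09), Pfdn5 (13.39) and Junb (12.29) and low for Chchd10 (8.32) and the median of the small ribosomal subunit genes (9.42). JG cell 7 was high for Eif3m (12.07), Eif4a1 (12.25), Sparcl1 (12.51) and the median of the tubulin genes (7.23). JG cell 8 was high for Sod2 (10.58) and Pln (12.32), and JG cell 5 for Tomm20 (12.97), Miox (12.63), Spp2 (12.37), Gpx3 (12.37), Fxyd2 (12.30) and Cldn5 (10.77).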

How the results depend on the processing

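The excess of genes higher in MM cells held under every alternative run over groups of cells, though not in the single pair of MM cell 16 and JG cell 7, at a size that moved with the scale and the cells. The counts of genes higher in MM and in JG cells were 469 and 59 after quantile normalization, 425 and 20 with values under background raised to it, 1760 and 232 at a difference of 1, 291 and 11 at a difference of 3, and 158 and 16 when groups must not overlap. Leaving out single cells gave 619 to 1050 genes higher in MM cells and 36 to 62 higher in JG cells, and leaving out JG cells 4 and 5 together gave 95 higher in JG cells. Leaving out single cells gave 74 to 324 genes above background in every MM cell and no JG cell and 2 to 7 in the other direction. The latter count was 8 with background at the 95th percentile of receptors, 5 at the highest receptor and 20 without JG cells 4 and 5. Quantile normalization moved the median difference of all genes from -0.19 to -0.09, and centring on receptors moved it to 0.01.

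Both comparisons of cells with similar gene numbers were chosen after seeing the data. MM cell 16 against JG cells 6, 7 and 8 gave 276 genes higher in MM and 233 in JG cells, and 430 and 205 above background on that side only. MM cell 15 against JG cell 8 gave 157 higher in JG, and 1383 and 1073 on that side only. With MM cell 16 against JG cells 6, 7 and 8, the sign turned for the medians of SR and hnRNP genes (-0.29), DNA replication (-0.071) and mitochondrial import and ribosomes (-0.009), and for Snrpa1 (-0.97), Eif4a1 (-0.91), Pcna (-0.22), Myc (-0.83), Sod2 (-1.80), Tpm1 (-1.38), Hoxa5 (-0.23), Crabp1 (-0.29), Ndn (-0.12), Igfbp4 (-0.011), Csrp2 (-0.33), Anxa2 (-0.60) and Npc2 (-0.26). With MM cell 15 against JG cell 8 it turned for ATP synthase (-0.14), small ribosomal subunit genes (-0.14), Rpl10a (-1.14), Ube2c (-0.68), Hoxd10 (-1.01), Crabp1 (-0.68), Ndn (-0.69) and S100a1 (0.53). The small ribosomal subunit also turned with group medians (-0.065) and without JG cells 4 and 5 (-0.15). The cause was not tested. Of 1520 values of 80 genes with a difference of 2 or more, 1410 moved by less than the spread between cells. Leaving out a single cell cannot move a group mean by as much as that spread. The values of those settings were thus bound to fall among the 1410 and say nothing about stability. No paired analysis was possible because the cell numbers of the groups do not overlap, cortex letters enter no comparison, and no test was run. Values under background have no order, and the gene numbers of single cells limit what can be seen of low genes.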

Other observations

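Signalling and membrane lists that were not described above had few members that differed by 2 or more. Of 16 Notch pathway genes none did (median -0.36), but all had the higher mean in the JG cells. Every JG cell lay above every MM cell for 5 of the 16, beside 6.86% of all genes. Of 6 sodium pump and FXYD genes Fxyd1 alone differed by 2 or more (16.7%, beside 0.186% of all genes). Their median of -0.77 was the most JG-leaning of the 47 lists. Centred on receptor medians, the Notch and sodium pump lists gave -0.15 and -0.56, beside 0.01 for all genes. Of 20 pericyte and mesangium genes Ndufa4l2 and Rgs5 were higher in JG cells (median -0.27), and of 15 MHC class I and interferon genes B2m was (median -0.48). Of 18 cAMP and protein kinase A genes Prkar1a was higher in MM cells (median -0.20). Prkar1a, a regulatory subunit of protein kinase A, was at 9.61 and 10.04 in MM cells 14 and 19, 7.06 and 6.40 in MM cells 15 and 16 and 5.47 to 6.82 across the JG cells. Of 19 lysosome and granule genes Npc2, which carries cholesterol out of lysosomes, was higher in MM cells (median -0.06), at 10.35 to 11.20 in MM cells 14, 15 and 19, 7.41 in MM cell 16 and 6.90 to 8.41 across the JG cells. The imprinted cell cycle inhibitor Cdkn1c lay just under a difference of 2 (1.99), at 10.48, 11.80, 8.05 and 10.74 in MM cells 14, 15, 16 and 19 and 8.12 to 8.54 across the JG cells.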
